A study of Mus musculus with 19 samples.

Results

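The circadian clock genes Per1, Per2, Per3, Cry1, Cry2, Arntl (also named Bmal1), Npas2, Nr1d1, Dbp and Ciart were followed across 19 Met1 mammary tumours. They are 10 of the 26796 genes in the deposited table. They were picked by name after earlier results of these data were known, among them the values of Per2, so their differences between 27HC and DMSO and the relations among them are given as a description with no test. The tumours were of Met1, a mouse mammary cancer line that can be grown in mice. The mice received extracellular vesicles, membrane particles that cells shed, from neutrophils that had been exposed to 27-hydroxycholesterol (27HC), a metabolite of cholesterol, or to its solvent DMSO. There were 10 tumours in the 27HC group and 9 in the DMSO group, and both groups therefore received neutrophil vesicles. The strain, age and genotype of the mice, the route, dose and duration of the vesicle treatment and the hour of day at which tumours were taken are stated in none of the sources used here, nor is it stated that each tumour came from a separate mouse. P-values below thus refer to the spread between these samples, which may not all come from separate mice.

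The clock is a feedback loop that runs in most cells with a period of about a day. ARNTL pairs with CLOCK or NPAS2, and the pair binds E-box sequences and activates the Per, Cry, Nr1d1, Dbp and Ciart genes. PER and CRY proteins then repress the pair, as does CIART, and NR1D1 represses Arntl and Npas2 through binding sites shared with the ROR receptors. In mouse tissues with a running clock, Nr1d1, Dbp and the Per genes peak far from the Arntl and Npas2 peak, so in samples taken at different hours the 2 arms of the loop lie opposite each other. Per1 and Per2 are also induced directly, outside the loop, by glucocorticoids and other signals.

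Promoter sequences are shown because the members differ in the clock elements they hold and because several members moved together across tumours. RefSeq promoters (GRCm38.p6, 250 bases before to 50 after the gene start) were found for 9 of the 10 members, in 11 windows, as Per1 and Arntl each have a pair of starts. On both strands they were searched for the E-box CACGTG, the D-box TTATGTAA or TTACGTAA, to which DBP and its relatives bind, the receptor core TAGGTCA or TGGGTCA, to which NR1D1 and the ROR receptors bind, and the cyclic AMP element TGACGTCA. Of all 32851 promoters of this length, 7.15% held the E-box, 1.06% the D-box, 6.45% the receptor core and 1.79% the cyclic AMP element. The E-box was found in 3 of the 11 windows (of Per1, Cry1 and Ciart), the D-box in 1 (Per3), the receptor core in 1 (Arntl) and the cyclic AMP element in 0. The bases before the start are given here 5′ to 3′, with matches in capitals. For Per1 and Arntl the start whose window held a match is used, and the window of the other start held none. For Arntl, whose match TAGGTCA begins 30 bases after that start, only the bases around it are given.
Per1 (chr11:69098699-69098948, plus strand): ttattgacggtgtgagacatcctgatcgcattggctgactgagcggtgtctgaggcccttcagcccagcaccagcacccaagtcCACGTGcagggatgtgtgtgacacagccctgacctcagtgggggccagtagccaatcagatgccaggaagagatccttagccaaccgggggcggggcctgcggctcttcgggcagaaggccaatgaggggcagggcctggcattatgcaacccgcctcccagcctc
Per3 (chr4:151044666-151044915, minus strand): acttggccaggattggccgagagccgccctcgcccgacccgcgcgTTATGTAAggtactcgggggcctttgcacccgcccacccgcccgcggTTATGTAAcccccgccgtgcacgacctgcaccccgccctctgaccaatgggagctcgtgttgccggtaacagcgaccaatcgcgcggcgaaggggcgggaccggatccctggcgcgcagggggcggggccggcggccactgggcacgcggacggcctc
Ciart (chr3:95882229-95882478, minus strand): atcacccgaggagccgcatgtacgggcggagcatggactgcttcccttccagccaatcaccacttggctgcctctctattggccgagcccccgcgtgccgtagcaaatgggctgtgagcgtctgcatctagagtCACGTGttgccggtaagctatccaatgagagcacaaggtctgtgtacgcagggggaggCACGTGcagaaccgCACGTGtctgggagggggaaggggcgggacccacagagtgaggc
Nr1d1 (chr11:98775378-98775627, minus strand): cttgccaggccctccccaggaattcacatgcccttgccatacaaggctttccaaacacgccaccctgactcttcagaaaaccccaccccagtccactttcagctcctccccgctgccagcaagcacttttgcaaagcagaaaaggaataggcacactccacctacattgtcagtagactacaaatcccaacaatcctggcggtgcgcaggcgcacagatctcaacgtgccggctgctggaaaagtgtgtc
Dbp (chr7:45704997-45705246, plus strand): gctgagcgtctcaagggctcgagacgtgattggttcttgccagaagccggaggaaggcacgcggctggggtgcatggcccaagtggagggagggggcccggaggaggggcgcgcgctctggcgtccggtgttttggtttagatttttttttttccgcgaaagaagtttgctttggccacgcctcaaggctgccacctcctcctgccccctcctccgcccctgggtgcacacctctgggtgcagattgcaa
Arntl (chr7:113207531-113207557, plus strand): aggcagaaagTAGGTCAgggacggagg

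The Per1 window shown held 1 E-box, which begins 166 bases before its start, and the Ciart window 3, at 116, 58 and 44 bases before it. The E-box of Cry1 begins 60 bases before its start. In Per3 the D-box TTATGTAA occurred at 205 and 158 bases before the start. No match was found in the windows of Nr1d1 and Dbp. The search covered only these exact letters in these windows, so elements elsewhere or with other letters were not looked for.

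Levels are given in CPM, expected counts scaled to a common library size after TMM normalization, and each library held between 28139419 and 41179056 expected counts. All 10 members passed the filter on low counts, which kept 15629 genes. The weakest member was Npas2, with 5.47 to 34.0 expected counts per library. Ciart had 19.9 to 125.8, and each of the other 8 members had at least 155 expected counts in every library. Markers of mammary epithelium were present in both groups, at a summed level of 142 to 540.4 CPM with 27HC and 163 to 545 CPM with DMSO, with Krt19 at 0 in at least 1 tumour. Skeletal muscle markers ranged from 4.59 to 3973 CPM with 27HC and from 5.80 to 1471 CPM with DMSO. All 10 of those markers had a log2 fold change of 27HC over DMSO above 0, with a median of 1.64. Of the 10, 0 passed edgeR's test between the groups, as did 0% of all genes tested. Libraries also differed in GC content, the mean GC content of their transcripts weighted by counts. It was 49.0% to 49.3% in 5 libraries (27HC replicates 1_3, 1_5 and 2_3 and DMSO replicates 1_5 and 2_3) and 50.6% to 52.3% in the other 14. In bulk tumours, fewer cells that express a gene and less of its RNA per cell cannot be told apart.

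Per1 and Per2 were the members with the largest differences between 27HC and DMSO tumours, and both lay on the higher side. Over all 15629 genes tested, edgeR's quasi-likelihood test called 0% between the groups. The count at an unadjusted p under 0.05 was 354, limma-voom called 0 genes and DESeq2 called 2, Bpifa2 and Tsc22d3, neither a member. The fold changes below are therefore sizes with standard errors, and no member is said to have changed.

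Per1 (ENSMUSG00000020893, GRCm38 chr11:69095217-69109960) encodes a repressor of the loop that is also an early target of glucocorticoids. In 27HC tumours its lowest, median and highest levels were 81.9, 284 and 396 CPM, and in DMSO tumours 50.2, 137 and 386 CPM. The ranges overlapped almost entirely, but 9 of the 10 27HC tumours lay above the DMSO median. Its mean was 271 ± 100.4 CPM with 27HC (SD, n = 10) and 156 ± 104 CPM with DMSO (SD, n = 9). The log2 fold change was 0.80 (SE 0.34). DMSO replicate 1_3 was the highest DMSO tumour by a wide margin, with the next at 245 CPM, and without it the log2 fold change was 1.09. Without DMSO replicate 2_3, the lowest DMSO tumour, it was 0.69, and the other fits that left out 1 tumour lay between these values.

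Per2 (ENSMUSG00000055866, chr1:91415982-91459324) encodes the partner repressor. It had 30.4, 50.6 and 62.7 CPM as the lowest, median and highest of the 27HC tumours, and 22.5, 29.4 and 38.1 CPM of the DMSO tumours. Every one of the 10 27HC tumours exceeded the median of the DMSO tumours, and 7 exceeded the highest of them. The mean was 46.0 ± 11.7 CPM with 27HC and 30.5 ± 4.78 CPM with DMSO. Across the 19 fits that left out 1 tumour its log2 fold change of 0.59 (SE 0.15) stayed between 0.52 and 0.65.

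Per3 (ENSMUSG00000028957, chr4:151003652-151044665), the family member that is dispensable for rhythm in mice, differed little. Its levels were 20.9, 31.8 and 45.8 CPM with 27HC and 16.8, 26.7 and 38.4 CPM with DMSO, a log2 fold change of 0.15 (SE 0.17). The Per genes thus did not share 1 size of difference, and the value of Per3 was smaller than its standard error.

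The other repressors had overlapping groups. Cry1 (ENSMUSG00000020038, chr10:85131700-85185064), a strong repressor of the ARNTL pair, had 11.6, 15.4 and 19.5 CPM with 27HC and 11.0, 13.2 and 19.1 CPM with DMSO. Cry2 (ENSMUSG00000068742, chr2:92403646-92434043), its close relative, had 16.8, 24.0 and 37.5 CPM with 27HC and 18.1, 20.2 and 27.0 CPM with DMSO. The highest Cry2 value was that of 27HC replicate 2_1. The log2 fold changes were 0.12 (SE 0.14) for Cry1 and 0.15 (SE 0.14) for Cry2, each close to its standard error. Without 27HC replicate 2_1 the value of Cry2 was 0.06. Ciart (ENSMUSG00000038550, chr3:95878503-95882251), a small repressor of the same pair, had 0.783, 1.51 and 2.74 CPM with 27HC and 0.693, 1.39 and 2.67 CPM with DMSO. Its log2 fold change was -0.10 (SE 0.29).

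Dbp and Nr1d1, outputs of the loop whose RNA swings widely in most mouse tissues, varied widely within each group and did not separate the groups. Dbp (ENSMUSG00000059824, chr7:45705088-45710203) encodes a transcription factor that passes the rhythm to other genes through D-boxes. It had 20.7, 70.1 and 107 CPM with 27HC and 30.6, 72.1 and 108 CPM with DMSO, a log2 fold change of 0.17 (SE 0.29). Nr1d1 (ENSMUSG00000020889, chr11:98767932-98775333), which encodes the nuclear receptor REV-ERBα, had 35.0, 129 and 161 CPM with 27HC and 46.3, 135 and 245 CPM with DMSO. Its log2 fold change was -0.25 (SE 0.34), and the 4 highest tumours were all from the DMSO group. Both genes overlap exons of a gene on the opposite strand, Thra beside Nr1d1 and Sphk2 beside Dbp. The kit marks strand, but whether the counting used strand is not given in the sources used here. Across the 19 tumours the log2 CPM of Nr1d1 had r = 0.96 (rho = 0.89) with that of Thra, and Dbp had r = 0.87 (rho = 0.80) with Sphk2 (0.88 and 0.79 in the 14 tumours without the 5 libraries of lowest GC content). The part of shared reads in these values was not tested.

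The activators were a little lower with 27HC. Arntl (ENSMUSG00000055116, chr7:113207465-113314126), which encodes the partner required for the loop, had 5.65, 7.18 and 8.37 CPM with 27HC and 6.71, 7.64 and 10.6 CPM with DMSO. Of the 10 27HC tumours, 2 lay above the DMSO median, and the groups overlapped through most of their range. Its mean was 7.06 ± 0.898 CPM with 27HC and 7.94 ± 1.23 CPM with DMSO, a log2 fold change of -0.17 (SE 0.12). Npas2 (ENSMUSG00000026077, chr1:39193731-39363236), a substitute for CLOCK, had 0.272, 0.503 and 0.801 CPM with 27HC and 0.185, 0.565 and 0.945 CPM with DMSO. Its log2 fold change of -0.18 (SE 0.27) rests on the small counts given above.

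Taken over the 10 members, 6 log2 fold changes were above 0 and 4 below, with a median of 0.13. Over all genes tested 53.9% were above 0 and the median was 0.01. For every member the groups overlapped, and groups that did not overlap were found for 0% of all genes tested. After a correction of each library for GC content, the log2 fold change was 0.76 for Per1 and 0.55 for Per2, and without the 5 libraries of lowest GC content it was 0.87 and 0.64. For Dbp the same alternatives gave -0.00 and 0.30, so that its small difference had no stable size.

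**Figure D1:**
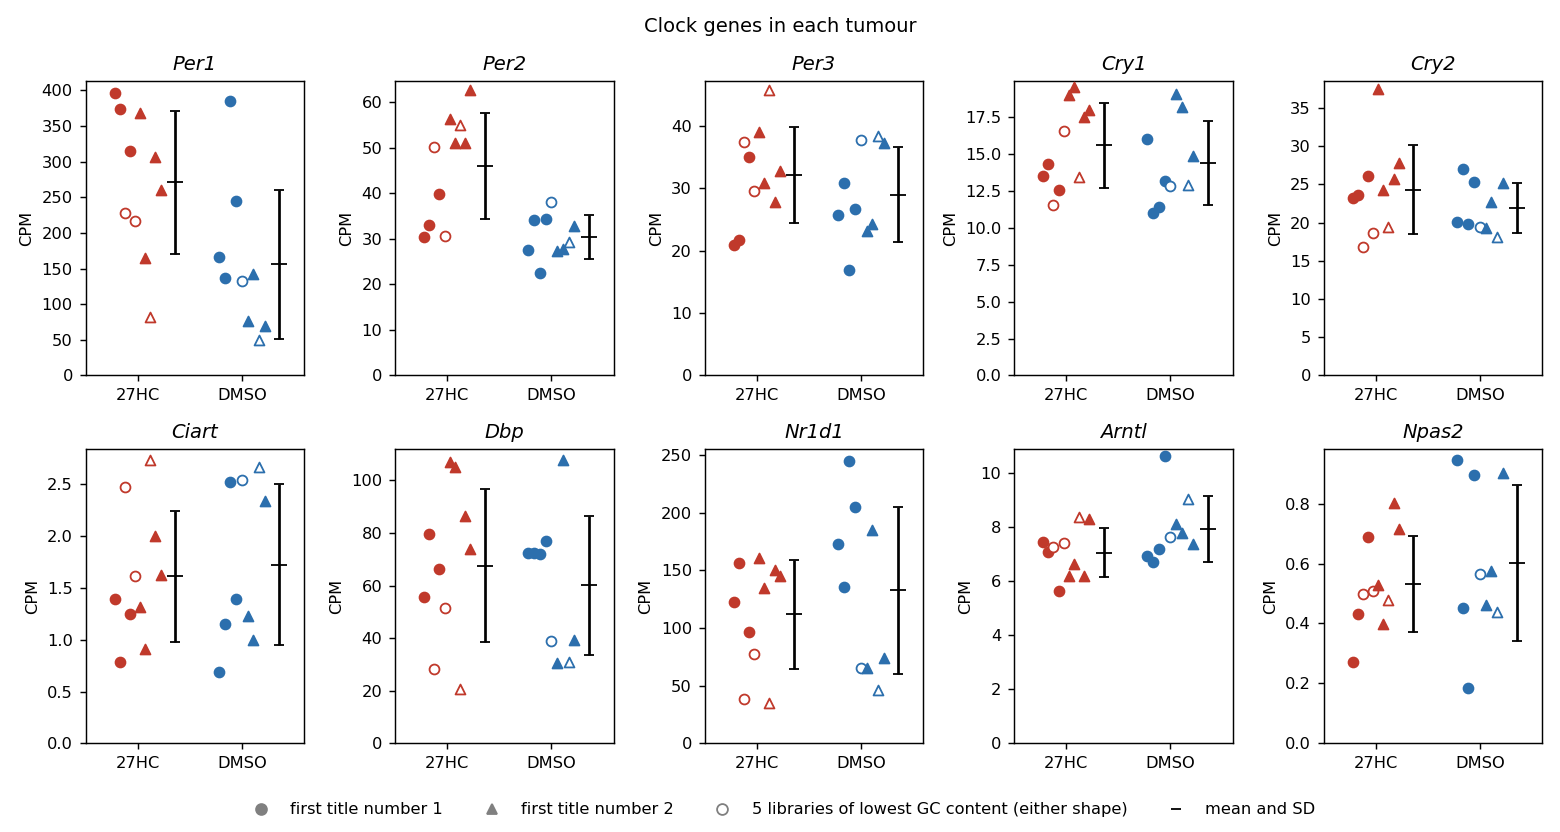
Level of each of the 10 clock genes in CPM (vertical axes, each from 0) in the 10 27HC tumours (left, red) and the 9 DMSO tumours (right, blue), with mean and SD in black. Triangles are tumours whose title starts with number 2, and open symbols are the 5 libraries of lowest GC content, which mostly sit low for Dbp, Nr1d1 and Cry2 and high for Ciart. For Per2, 7 of 10 27HC tumours lie above the highest DMSO tumour, at 38.1 CPM.

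Each title carries a first number, 1 or 2, with no stated meaning, which splits the tumours into 5 27HC and 4 DMSO tumours with number 2 and 5 of each with number 1. The Per2 difference lay mostly in the tumours with number 2. There Per2 had 51.0, 55.0 and 62.7 CPM as lowest, median and highest with 27HC and 27.4, 28.6 and 32.9 CPM with DMSO, with no overlap. In tumours with number 1 it had 30.4, 33.0 and 50.2 CPM with 27HC and 22.5, 34.1 and 38.1 CPM with DMSO, with the median of the 27HC tumours below that of the DMSO tumours. The log2 fold change was 0.89 (SE 0.15) with number 2 alone and 0.25 (SE 0.24) with number 1 alone. Groups that do not overlap among number 2 tumours were found for 1.2% of all genes tested, and among the members for Per2 alone.

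Other members split the same way in size. The log2 fold change of Per1 was 1.46 (SE 0.43) with number 2 alone and 0.56 (SE 0.28) with number 1 alone. That of Nr1d1 was 0.42 (SE 0.47) with number 2 and -0.72 (SE 0.36) with number 1, and that of Dbp 0.58 (SE 0.49) with number 2 and -0.22 (SE 0.25) with number 1. None of these differences between the subsets passed. In edgeR's interaction test Per2 had a difference of 0.68 (SE 0.24) between the subsets with an adjusted p of 0.911, and 0 of 10 members passed. Over all genes that test called 0% (223 genes at an unadjusted p under 0.05, and 0 by limma-voom or DESeq2).

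Between number 2 and number 1 tumours, with treatment in the model, Per1 and Cry1 showed the largest differences relative to their error. The log2 fold change of number 2 over number 1 was -0.82 (SE 0.30) for Per1 and 0.35 (SE 0.12) for Cry1, with an adjusted p of 1.00 for each in edgeR's test. Of the members 0 of 10 passed, as did 0% of all genes (384 at an unadjusted p under 0.05). DESeq2 called 41 genes in this comparison, among them the muscle genes Acta1 and Ckm, and 0 members.

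**Figure D2:**
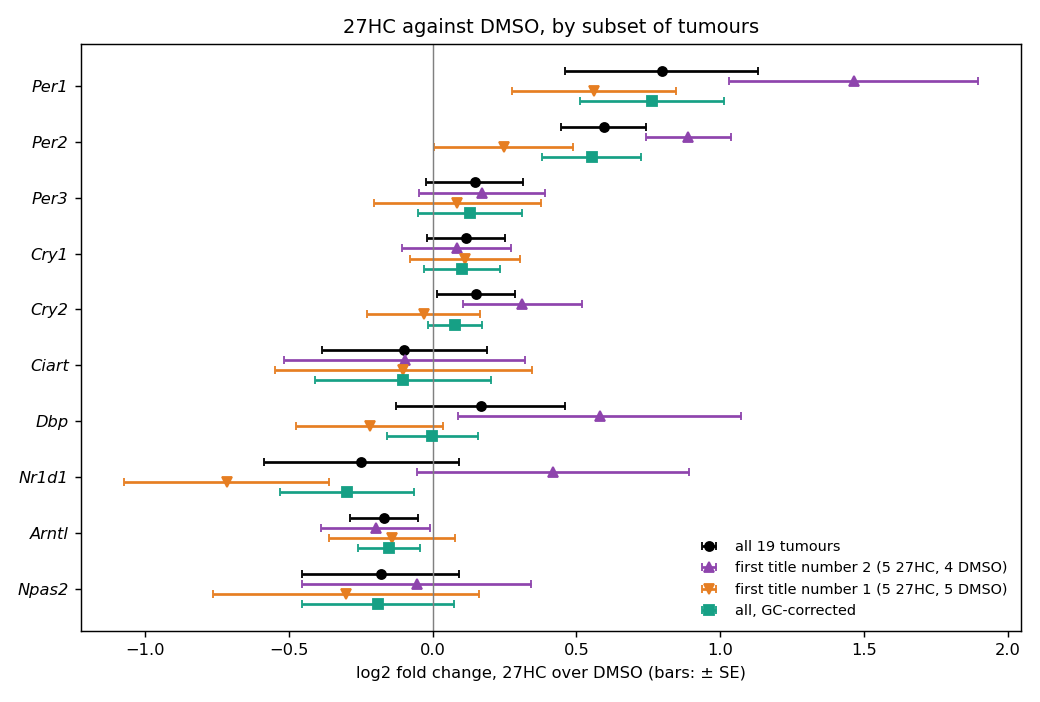
Log2 fold change of 27HC over DMSO (horizontal axis, bars ± SE) for each clock gene in all 19 tumours, in the tumours with first title number 2, in those with number 1 and after correction for library GC content. Per1 and Per2 lie right of 0 in each, and Nr1d1 lies at 0.42 with number 2 and -0.72 with number 1.

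The members differed in how much they varied from tumour to tumour. The SD of log2 CPM over the 19 tumours was 0.92 for Per1, 0.83 for Nr1d1 and 0.71 for Dbp, which 90.8%, 86.8% and 77.6% of all genes tested fell below. Ciart had 0.60, Npas2 0.52 and Per2 0.43, near the median of all genes of 0.47. Arntl was among the steadiest genes of the table, with an SD of 0.21, and only 6.19% of genes had a smaller one. Cry1 (0.27), Cry2 (0.28) and Per3 (0.37) also lay below that median. The output genes and Per1 thus spanned the widest range, and the activator Arntl the narrowest.

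Much of that spread moved with the GC content of the library. In an edgeR fit of library GC content with treatment in the model, 5 of 10 members passed, 4 toward higher levels with higher GC content and 1 toward lower. The same fit called 68.2% of all genes tested, so the share among the members was no larger than the background. Per SD of library GC content the log2 level was 0.69 higher (SE 0.12, adjusted p = 3.18e-05) for Nr1d1 and 0.58 higher (SE 0.09, adjusted p = 1.61e-05) for Dbp. It was 0.23 higher for Cry2 (SE 0.04, adjusted p = 6.30e-05) and 0.40 higher for Per1 (SE 0.16, adjusted p = 0.0326). Ciart went the other way, with -0.37 (SE 0.11, adjusted p = 0.00733). Per2 had 0.00 (SE 0.07, adjusted p = 0.964), and Per3, Cry1, Arntl and Npas2 did not pass either.

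The levels show the same in plain form. Dbp had 20.7, 31.0 and 51.4 CPM as lowest, median and highest of the 5 libraries of lowest GC content and 30.6, 73.1 and 108 CPM in the other 14. Nr1d1 had 35.0, 46.3 and 77.3 CPM in those 5 and 65.6, 148 and 245 CPM in the other 14. Ciart had 1.62, 2.54 and 2.74 CPM in the 5 and 0.693, 1.29 and 2.52 CPM in the 14. The ranges overlapped for every member. The 5 libraries were picked by their GC content, which was itself computed from the counts of all genes, the members among them. The p-values of the library GC fit thus compare genes with a measure made from the same counts. Among clock genes outside the members, Nr1d2 had 77.0 to 116 CPM in the 5 and 27.0 to 68.4 CPM in the 14, and Clock had 71.7 to 91.3 CPM in the 5 and 11.2 to 70.7 CPM in the 14, with no overlap. The longest transcripts of Dbp, Per1 and Nr1d1 have 61.6%, 59.4% and 56.8% GC, and those of Nr1d2 and Clock 41.8% and 40.9%. Whether the RNA levels of the tumours or the libraries differed here was not tested. The skeletal muscle score called 0 members, against 0.934% of all genes.

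**Figure D3:**
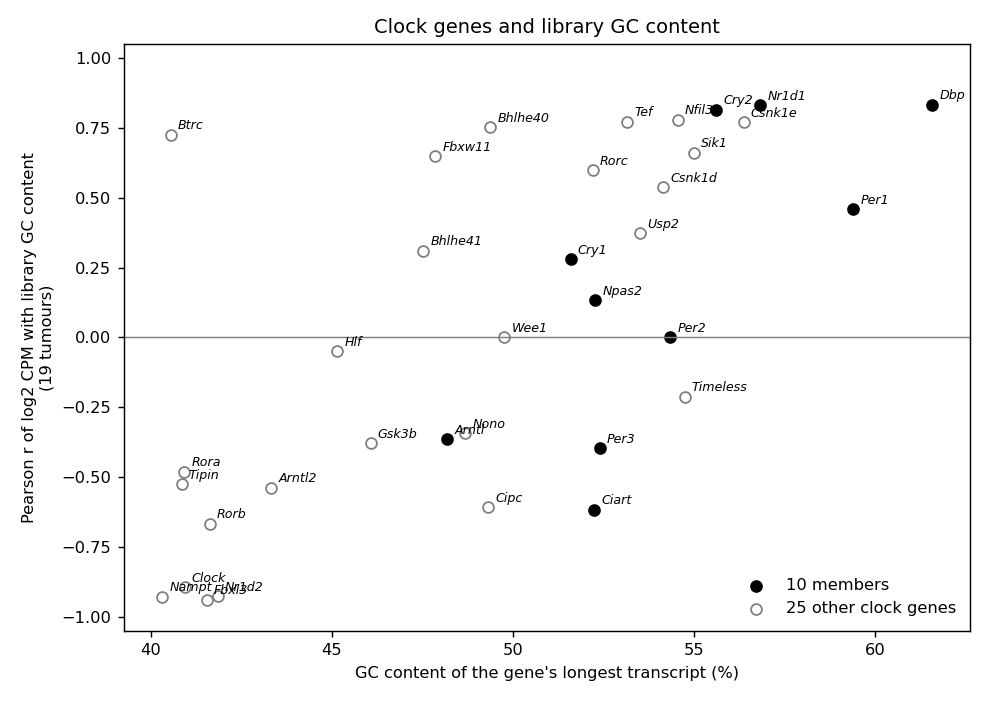
Pearson r of log2 CPM with library GC content over 19 tumours (vertical axis) against the GC content of each gene's longest transcript in percent (horizontal axis), for the 10 members (filled) and 25 other clock genes (open). Dbp and Nr1d1 lie at r = 0.83, Per2 at 0.00, and Nr1d2 and Clock at -0.93 and -0.89.

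The order of the loop was then looked for across tumours, as correlations between members over log2 CPM. These are descriptions, and each point shares its library, depth and GC content between the genes of a pair. Nr1d1 and Dbp moved together most closely, with Pearson r = 0.91 and Spearman rho = 0.83 over 19 tumours. Without the 5 libraries of lowest GC content r was 0.76, and after GC correction 0.63. Among the other 14 tumours the relation rested on DMSO replicates 2_1 and 2_4, which were low for both genes. Without these 2, the farthest from the median of Nr1d1, r was 0.26 over 12 tumours. Per1 went with Nr1d1 at r = 0.61 over 19 tumours, 0.60 over 14 and 0.25 after GC correction, and with Dbp at 0.61, 0.54 and 0.17. Over 12 tumours, without the 2 of the 14 farthest from the median of Per1, these were -0.02 for Nr1d1 and -0.33 for Dbp.

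Per2 and Per3 also moved together. They had r = 0.65 (rho = 0.64) over 19 tumours, 0.71 over 14 and 0.78 after correction, within 27HC tumours 0.70 and within DMSO tumours 0.79. In number 2 tumours r was 0.45 and in number 1 tumours 0.84. The link of Cry2 to this pair was larger without the 5 libraries of lowest GC content and after GC correction. With Per3 it had r = 0.09 over 19 tumours, 0.76 over 14 and 0.73 after correction, and with Per2 0.42, 0.77 and 0.67. Without the 2 of the 14 tumours farthest from the median, the Per3 and Cry2 value was 0.63 and the Per2 and Cry2 value 0.71. Per3 and Nr1d1 ran against each other, at r = -0.66, -0.37 and -0.78 over the same 3 settings. Over all 45 pairs of members, r was above 0.5 or below -0.5 in 9 pairs with 19 tumours, in 7 with 14 tumours and in 8 after correction. Only 2 pairs held such a value with the same sign in all 3 settings, Per2 with Per3 and Nr1d1 with Dbp. The sign differed between the uncorrected and corrected values in 9 pairs.

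**Figure D4:**
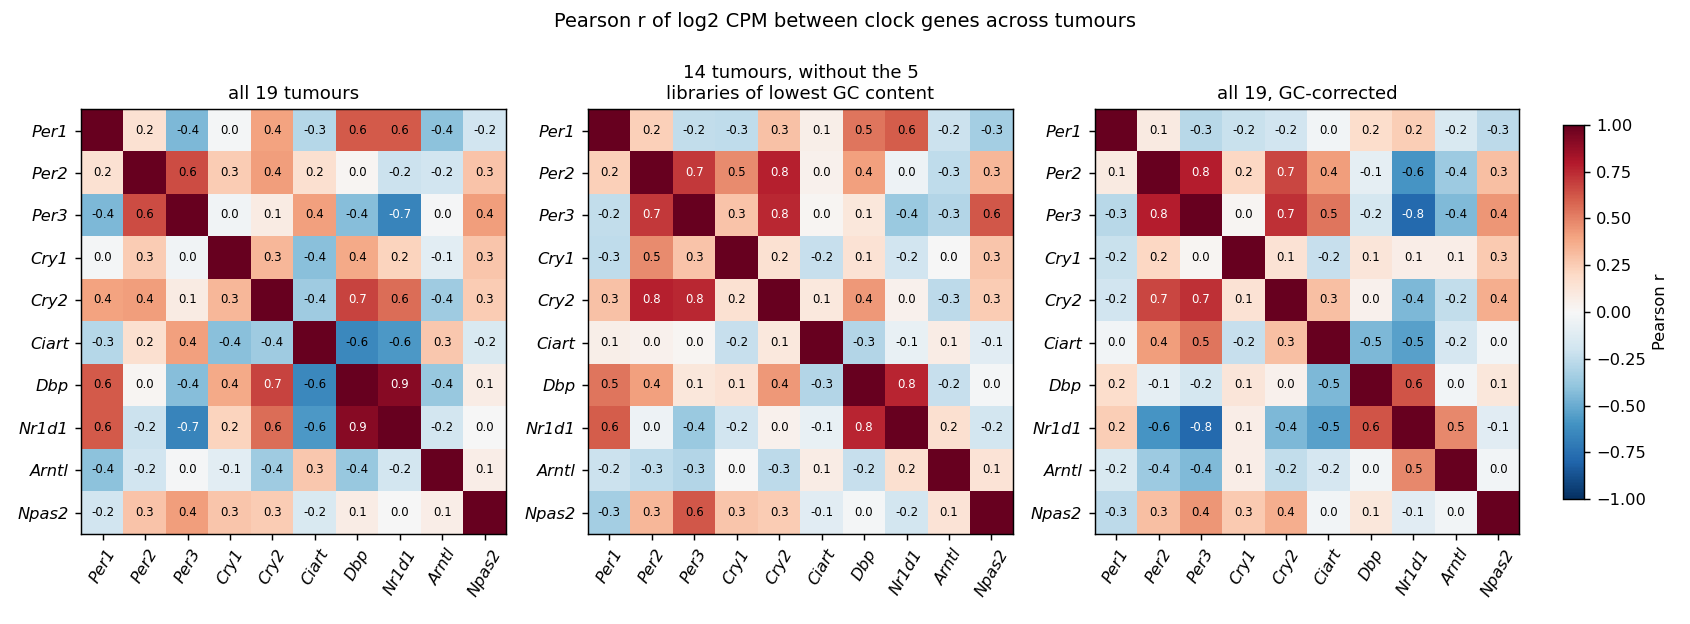
Pearson r of log2 CPM between the 10 clock genes, over all 19 tumours (left), over the 14 tumours without the 5 libraries of lowest GC content (middle) and over 19 tumours after GC correction (right), with red for r above 0 and blue for r below 0. Nr1d1 and Dbp stay positive in all 3 (0.91, 0.76 and 0.63), and Per3 with Cry2 has 0.09, 0.76 and 0.73.

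Relations between the Per and Dbp arm and the Arntl and Npas2 arm differed in size and sign between pairs of genes and subsets of tumours. Arntl had r = -0.38 with Dbp over 19 tumours, -0.23 over 14 and -0.03 after correction. The same pair had r = -0.59 without DMSO replicate 1_4, the tumour with the highest Arntl level, and -0.65 without the 2 tumours farthest from the median of Arntl. It was -0.58 within 27HC tumours and -0.14 within DMSO tumours, and -0.69 in number 2 tumours and 0.02 in number 1 tumours. With Per1, Arntl had r = -0.41, -0.22 over 14 and -0.15 after correction, and -0.60 without DMSO replicate 1_4. Over 19 tumours Arntl had r = -0.20 with Per2 and -0.01 with Per3. Npas2 had r = -0.19 with Per1, 0.28 with Per2, 0.42 with Per3 and 0.08 with Dbp. Arntl and Npas2, which peak together in a running clock, had r = 0.07, 0.13 over 14 and -0.03 after correction, and -0.18 without DMSO replicate 1_4. Each arm was summarised as the mean z-score of its members, Per1, Per2, Per3 and Dbp on one side and Arntl and Npas2 on the other. The members of the Per and Dbp arm did not all move together. Over 19 tumours r was 0.65 for Per2 with Per3 and 0.61 for Per1 with Dbp. It was 0.155 for Per1 with Per2, 0.02 for Per2 with Dbp, -0.42 for Per3 with Dbp and -0.45 for Per1 with Per3. The r between the arms was -0.12 over 19 tumours, -0.10 over 14 and -0.12 after correction, 0.06 within 27HC tumours and 0.32 within DMSO tumours. It was -0.36 in number 2 tumours and 0.13 in number 1 tumours, so a relation of 1 sign was not seen in every subset. Leaving out 1 tumour moved it to between -0.25 (without DMSO replicate 1_4) and -0.03 (without 27HC replicate 2_1), and it was -0.23 without 27HC replicate 2_5 and -0.21 without DMSO replicate 1_3.

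The difference of the arms, Per and Dbp minus Arntl and Npas2, was 0.58 ± 0.68 in 27HC tumours (SD, n = 10) and -0.65 ± 0.86 in DMSO tumours (SD, n = 9). It was above 0 in 8 of 10 27HC tumours and in 2 of 9 DMSO tumours. The gap between the group means was 1.23 z-score units, and between 0.83 (number 1 alone) and 1.61 (number 2 alone) under the alternatives run. Both arms contributed: the Per and Dbp arm had 0.35 ± 0.47 with 27HC and -0.39 ± 0.40 with DMSO, and the Arntl and Npas2 arm -0.23 ± 0.50 with 27HC and 0.26 ± 0.88 with DMSO. Within the first arm the members differed unequally. Their log2 fold changes were 0.80 (SE 0.34) for Per1, 0.59 (SE 0.15) for Per2, 0.15 (SE 0.17) for Per3 and 0.17 (SE 0.29) for Dbp. Those of Arntl and Npas2 were -0.17 (SE 0.12) and -0.18 (SE 0.27). DMSO replicate 1_4 had the highest Arntl and Npas2 arm, at 1.93. Since the arms are made of genes chosen with this contrast known, the gap carries no test.

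**Figure D5:**
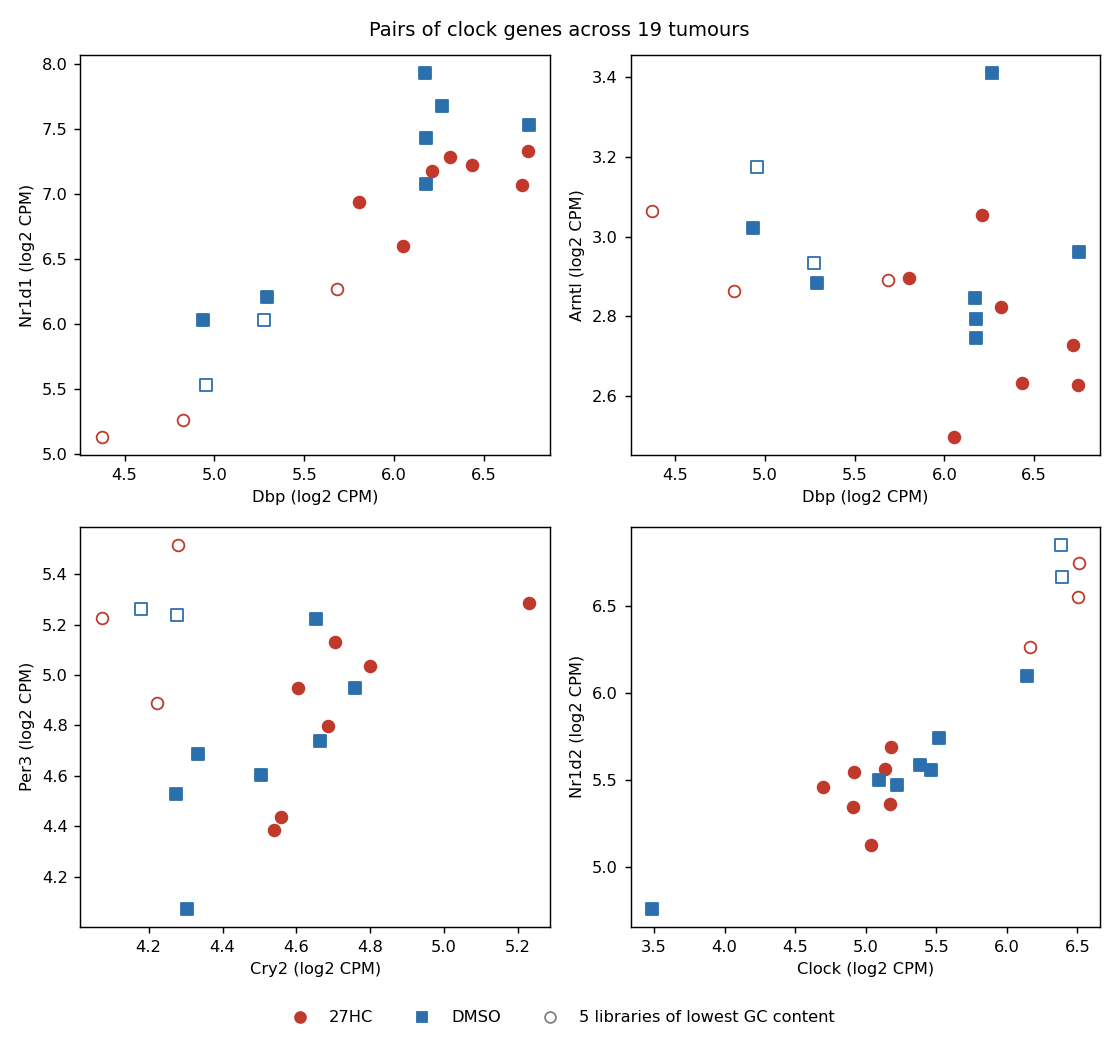
Log2 CPM of 4 pairs of clock genes in each tumour (circles 27HC, squares DMSO, open symbols the 5 libraries of lowest GC content): Nr1d1 against Dbp, Arntl against Dbp, Per3 against Cry2 and Nr1d2 against Clock. Nr1d1 and Dbp rise together (r = 0.91), the 5 open symbols stand apart from the line of the others for Per3 and Cry2, and they form the upper end for Nr1d2 and Clock.

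The phase relation was tested on 7 clock genes outside the members. Tef and Hlf (relatives of Dbp), Nr1d2 (the relative of Nr1d1), Usp2 (a deubiquitinase) and Bhlhe41 (a repressor) peak with Per and Dbp in mouse tissues. Clock (the partner of ARNTL) and Nfil3 (a repressor that competes at D-boxes) stand for the opposite phase. Of 21 pairs, 6 passed a permutation test over 19 tumours with Benjamini-Hochberg adjustment over the pairs, 4 of them across the sides. Of these 4, 2 had a negative r, Nr1d2 with Nfil3 and Tef with Clock, and 2 a positive one, Nr1d2 with Clock and Usp2 with Nfil3. As the 5 libraries of lowest GC content do not overlap the others for Nr1d2 and Clock, the values within the other 14 tumours bear on these pairs. There 1 of 21 pairs passed, Nr1d2 with Clock, with r = 0.89 (permutation p = 0.0003, adjusted p = 0.0063), a positive sign between genes of opposite phase. Without the 2 of those tumours farthest from the median of Nr1d2, r was 0.50 over 12 tumours, so the value rests on DMSO replicates 1_2 and 2_1. After GC correction 3 pairs passed, of which 0 were among the first 6: Hlf with Nfil3, Hlf with Bhlhe41 and Bhlhe41 with Nfil3, with r of 0.65, 0.60 and 0.66. A negative relation across the sides thus did not pass in the 14 tumours or after the correction. Tef with Clock kept a negative sign, with r = -0.45 over the 14 tumours and -0.40 after correction. Nr1d2 with Nfil3 had 0.04 and -0.345.

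Further clock genes, of a list of 26 that includes those 7, differed little between 27HC and DMSO. Of the 25 tested, 15 were above 0 on the log2 fold change scale and 10 were below, against 53.9% above 0 for all genes. Their median was 0.04 against 0.01 for all genes, and 0 passed, as did 0% of all genes. The 3 highest were Wee1, a cell cycle kinase under clock control, with 0.34 (SE 0.16), Sik1, a kinase induced by cyclic AMP, with 0.32 (SE 0.18), and Usp2 with 0.25 (SE 0.16). The 3 lowest were Nono, a PER-binding protein, with -0.18 (SE 0.11), Tipin, a replication fork protein that binds TIMELESS, with -0.15 (SE 0.16), and Clock with -0.07 (SE 0.32). With library GC content 17 of the 25 passed, 9 higher and 8 lower, against the background given above.

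Per1 and Per2 are known targets of the glucocorticoid receptor, and 12 genes of that response were therefore set beside them. Of the 12, 9 were above 0 and 3 were below in log2 fold change, with a median of 0.29. Over all genes tested 53.9% were above 0. In edgeR's test 0 of the 12 passed, as did 0% of all genes, while DESeq2 called 1 of the 12, Tsc22d3. Tsc22d3, which encodes the glucocorticoid-induced protein GILZ, had 44.8, 68.1 and 89.6 CPM with 27HC and 29.7, 39.1 and 54.8 CPM with DMSO. Its DMSO median was exceeded in all 10 27HC tumours, and its log2 fold change was 0.79 (SE 0.16). Per1 went with Tsc22d3 across tumours at r = 0.79, 0.83 over the 14 and 0.87 after GC correction, and Per2 at 0.46, 0.51 and 0.15. These 3 genes were named with the 27HC contrast known, and each had a log2 fold change above 0. Every r in this paragraph is over both groups, so it carries that difference and is a description. Values within each group were not computed. Other targets ran lower with Per1 over the same 3 settings, at 0.60, 0.54 and 0.39 for Fkbp5, 0.27, 0.44 and 0.54 for Klf9 and 0.02, 0.14 and 0.15 for Zbtb16. Per2 had 0.62, 0.71 and 0.72 with Zbtb16, 0.43, 0.73 and 0.14 with Fkbp5 and 0.03 in each setting with Klf9. Zbtb16 was weak, at 0.307 to 3.97 CPM with 27HC and 0.148 to 2.04 CPM with DMSO. Of the 9 above 0, the highest log2 fold changes were those of Pdk4, 1.92 (SE 0.76), and Zbtb16, 1.00 (SE 0.43). The lowest of the 9 was that of Errfi1, 0.02 (SE 0.14). Pdk4 also had r = 0.86 with the skeletal muscle score. The 3 below 0 were Dusp1 with -0.21 (SE 0.23), Hif3a with -0.15 (SE 0.57) and Sgk1 with -0.05 (SE 0.15). Of 9 immediate early genes, 4 were above 0 and 5 below, with a median of -0.07.

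Among genes outside the members whose mean log2 CPM was 1 or more, those most like Dbp across the 19 tumours were Tns2, Pqlc1, Cadm4, Fzd9 and Map7d1, with r of 0.94, 0.93, 0.93, 0.92 and 0.92. After GC correction the same 5 had 0.69, 0.60, 0.46, 0.66 and 0.26. The most opposite were Slc35b3, Pigm, Smurf2, Abcg2 and Traf6, from -0.92 to -0.90, of which Smurf2 alone kept a value below -0.5 after correction, at -0.69. The genes most like Arntl were Taf3 with r = 0.74, Gm28036 with 0.71, Pde5a and Nol11 with 0.70 each and Taf9 with 0.69, and after correction they had 0.71, 0.61, 0.48, 0.63 and 0.59. The most opposite to Arntl were Habp4, Limk2, Ifi35, Otub2 and Itga2b, from -0.70 to -0.67. The Arntl values moved less with the correction than those of Dbp, and none of these genes is a clock gene of the lists used here.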

How the data were processed

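RNA was measured by poly(A) sequencing in 19 tumours. The authors deposited expected counts per gene; per the submitters' processing notes kallisto 0.44.0, edgeR, limma and GRCm38 were used, without stated roles. The deposited expected counts were rounded and matched to samples by title. Differences were fitted with edgeR 4.0.16 in R 4.3.3 (TMM, filterByExpr, quasi-likelihood), with adjustment over all 15629 genes kept and a threshold of 0.05; 11167 genes were left out. Log2 CPM used a prior count of 2. SE came from the F statistic. Symbols were found for 26290 identifiers, with coordinates and transcript GC content from GENCODE M21. The GC correction was a loess fit (span 0.3) per library. Pairs outside the members had 100000 resamples, two-sided (smallest p 1e-05). The 10 members, the gene lists and the rule for named genes (all members, the 7 genes of the pair test, 3 extremes per direction of the clock list, 5 per direction like Dbp and Arntl, Tsc22d3) were chosen with earlier results of these data known. The library GC content and muscle score fits, the GC correction and the set of 14 libraries were chosen after seeing the data. Dusp1, Sgk1, Fkbp5, Klf9, Zbtb16, Pdk4, Errfi1, Hif3a and Bpifa2 were added after their values were seen. Alternatives were limma-voom 3.58.1, DESeq2 1.42.0, other filters and scalings, a title-number block, each title number alone, a muscle score and leaving out each tumour. The fits were tested on simulated data. The lowest chi-square per degree of freedom between 2 tumours of 1 group was 40.7, so none was a duplicate.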

Additional observations from a re-analysis of the deposited data

Results flagged for a closer look

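Cry2 stood out in 1 tumour. In 27HC replicate 2_1 its level was 37.5 CPM, above the other 27HC tumours, which reached at most 27.8 CPM. The test for a sample far from its group was run on 20 groups, the 10 members in each treatment, and this was the 1 found; by chance about 1 in 20 would be. This tumour also had the highest Per and Dbp arm, at 1.20, and the highest library GC content of the 27HC group, at 52.2%. Cry2 had r = 0.81 with library GC content over 19 tumours. Without this tumour the log2 fold change of Cry2 was 0.06.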

How the results depend on the processing

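The count of genes called between 27HC and DMSO was 0 under every alternative run except DESeq2, which called 2; between first title numbers it was 0 except for 41 with DESeq2, and for the interaction 0 in all. The 6 pairs of clock genes outside the members that passed became 2 with Spearman's rho, 3 in 27HC tumours alone, 1 in DMSO tumours alone, 1 with number 1 alone, 5 with number 2 alone (2 of them among the 6), 3 after GC correction (0 of them among the 6) and 1 without the 5 libraries of lowest GC content, and leaving out 1 tumour gave 4 to 10, the highest without 27HC replicate 1_5. The sign turned without the 5 libraries for Clock with Nfil3 (r = 0.0958) and Nr1d2 with Nfil3 (r = 0.0400), and after GC correction for Tef with Nr1d2 (r = 0.0112); the cause was not tested. With 1 tumour left out, Clock with Nfil3 no longer passed in 5 of 19 cases (27HC replicates 1_3, 2_1 and 2_3 and DMSO replicates 1_5 and 2_3), and Usp2 with Nfil3 in 13. Among member log2 fold changes, leaving out 1 tumour turned the sign for Ciart alone (0.00 without DMSO replicate 2_3). With the full title number as a replicate block, 0 genes were called and Per1 and Per2 had 0.93 and 0.51. Same-numbered tumours of the 2 groups deviated with r from -0.43 to 0.78, over 0.1 in 5 of 9 pairs, and 2 of the 27HC tumours correlated best with their own number, so the numbers were not taken as pairs. The low counts of Npas2 and Ciart limit what can be seen of them.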
